A study of Mus musculus with 54 samples.

Results

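The white adipose tissue of the epididymis (eWAT), a fat pad beside the testis, was compared between male mice on a lasting high-fat diet and male mice on a low-fat diet. The measurement was small RNA sequencing of mature microRNAs (miRNAs). The members described are all mature miRNAs with enough counts for a test in this fat: 571 of the 1966 names in the deposited count table, of which 1372 had a count in at least 1 of the 12 libraries. All mice were wild-type C57BL/6 males of the F0 generation that ate chow until 6 weeks of age, then a single diet regime, and were 24 weeks old when sampled. HF mice ate a high-fat diet for 18 weeks (6 libraries), and LF mice a low-fat diet for 18 weeks (6 libraries). A further group, HFLF (6 libraries), ate high fat for 9 weeks and then low fat for 9 weeks, and served only to estimate the spread. The diet protocol has the letters "HLD" at 1 place, taken here for high fat. Apart from a number given to each mouse of a diet, the labels say nothing of separate animals, and the p-values therefore rest on the spread between these libraries, which may be technical. These 12 libraries are part of a series of 54 from liver, eWAT and sperm. The prefix mmu- of the names in the files is left off.

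A miRNA is cut from a hairpin transcript as a 5p or 3p arm, and the arm loaded into Argonaute represses messenger RNAs that pair with its seed, bases 2 to 8. In fat, miRNAs are known to act in the formation of fat cells, in insulin signalling, in the deposition of collagen, and in the immune cells that gather in the fat of obese animals. Many lie in introns of protein-coding genes or in clusters that are transcribed together, so neighbours often share their regulation. The tissue is a mixture of fat cells, vessels, fibroblasts and immune cells, and in such bulk samples fewer cells of a type and less RNA per cell cannot be told apart.

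The sequences of the miRNAs on which the results turn are shown 5′ to 3′ with the seed in capitals, so that members with the same seed can be read side by side. Mature sequences and their positions are from RefSeq on GRCm38.p6, the build named in the submitters' processing notes, and 478 of the 571 tested miRNAs matched an entry there. The first set holds miRNAs that were higher in HF fat, with 2 seed partners that did not pass the test (miR-146a-5p and miR-16-5p).
miR-342-3p: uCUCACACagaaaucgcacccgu
miR-221-3p: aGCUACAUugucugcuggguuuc
miR-222-3p: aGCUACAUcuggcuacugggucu
miR-132-3p: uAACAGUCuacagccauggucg
miR-212-3p: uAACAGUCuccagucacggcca
miR-155-5p: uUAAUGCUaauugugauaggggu
miR-146b-5p: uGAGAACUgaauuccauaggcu
miR-146a-5p: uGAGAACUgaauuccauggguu
miR-15b-5p: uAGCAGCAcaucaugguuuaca
miR-16-5p: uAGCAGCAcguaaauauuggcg
miR-34a-5p: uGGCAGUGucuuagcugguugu
miR-504-5p: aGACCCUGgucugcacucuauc
miR-335-3p: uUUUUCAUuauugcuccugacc
The second set holds miRNAs that were lower in HF fat, grouped by seed, with the seed partner miR-99b-5p, which did not pass the test.
miR-30a-5p: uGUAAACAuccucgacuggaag
miR-30c-5p: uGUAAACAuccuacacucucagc
miR-30e-5p: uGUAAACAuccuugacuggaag
miR-29a-3p: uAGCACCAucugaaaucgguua
miR-29b-3p: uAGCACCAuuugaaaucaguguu
miR-29c-3p: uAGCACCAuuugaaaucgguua
miR-10a-5p: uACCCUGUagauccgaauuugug
miR-10b-5p: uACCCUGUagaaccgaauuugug
miR-99a-5p: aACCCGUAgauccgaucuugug
miR-100-5p: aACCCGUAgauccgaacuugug
miR-99b-5p: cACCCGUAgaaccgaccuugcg
The members of a family differ outside the seed. Of the miR-30 family, miR-30b-5p and miR-30d-5p, which did not pass the test, are not shown.

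Of the 571 miRNAs, 112 were higher in HF than in LF fat and 87 were lower, by edgeR's quasi-likelihood test at an adjusted p below 0.05 over all 571. That is 19.6% of the tested miRNAs called higher, 15.2% called lower and 34.9% called either way. In 77 miRNAs, 13.5% of those tested, no HF library overlapped any LF library: 55 were above LF in every library and 22 below (9.63% and 3.85%). The 2 directions sat at different abundance, as the plot of all tested miRNAs shows. Levels are given in CPM, counts scaled to the size of the library after edgeR's TMM scaling. Called miRNAs that were higher had a median level of 26.4 CPM, and those that were lower 93.6 CPM. Among the 64 miRNAs of 1000 CPM or more, 5 were called higher and 21 lower, while among the 242 under 10 CPM 34 were called higher and 19 lower. Measured as a share of all counts, the 87 lower miRNAs took 32.0% ± 4.73 in HF fat and 45.6% ± 4.69 in LF fat (SD, n = 6 each), and the 112 higher miRNAs took 3.36% ± 0.94 in HF fat and 1.34% ± 0.20 in LF fat.

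**Figure D1:**
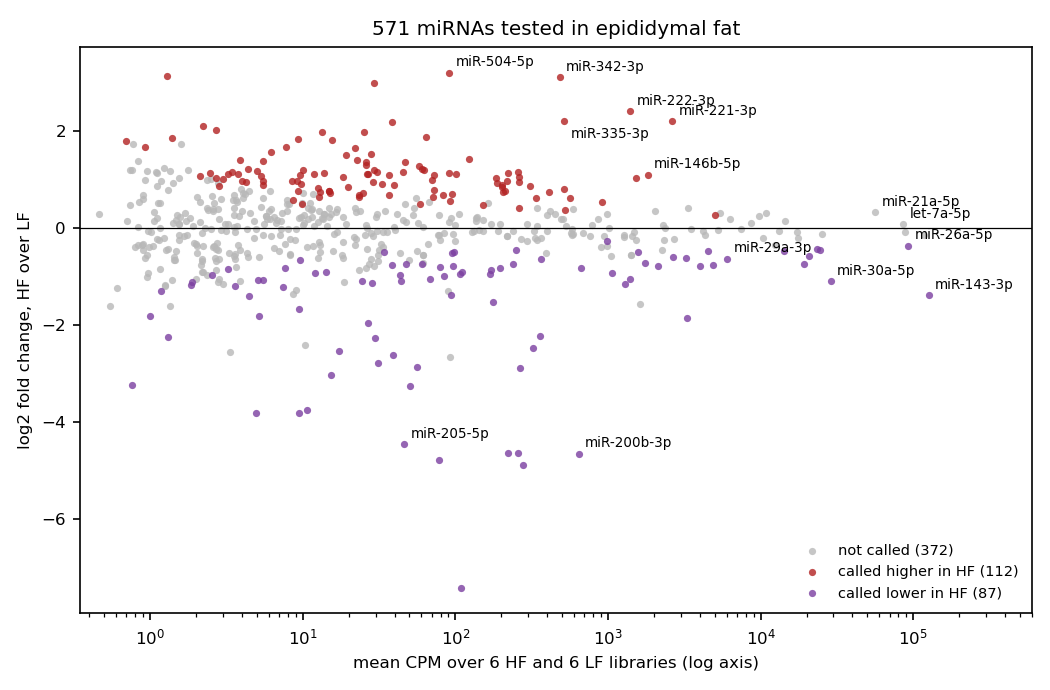
Each point is 1 of 571 miRNAs, with its mean level over 6 HF and 6 LF libraries in CPM on a log axis across and its log2 fold change, HF over LF, up the page. Red points were called higher in HF (112), purple points called lower (87) and grey points not called; most of the called miRNAs at the right edge lie below 0.

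The balance of the 2 directions depends on the scaling. With TMM the median log2 fold change of all tested miRNAs was 0.03. Scaling by total counts moved it to 0.32 and gave 205 higher and 53 lower calls, and RLE factors moved it to -0.07 and gave 100 higher and 111 lower. Changes of small size below, such as those of miR-10, miR-26, miR-103 and let-7, are to be read against these shifts. Libraries held 7481038 to 10558863 counts in HF fat and 8492015 to 13022536 in LF fat, with 849 to 917 and 827 to 934 miRNAs detected. Of miRNAs abundant in white fat, miR-143-3p, miR-26a-5p, miR-30a-5p, miR-103-3p and miR-378a-3p were at 1976 CPM or more in each of the 12 libraries.

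The 10 most abundant miRNAs took 65.4% ± 1.43 of the counts in HF fat and 68.4% ± 2.35 in LF fat. Of these 10, 5 were called, all lower in HF, where 15.2% of all tested miRNAs were called lower. The miRNA with the highest mean, miR-143-3p, which favours fat cell formation and marks smooth muscle, had a lowest, median and highest level of 35230.3, 74424 and 97125 CPM in HF fat, against 108995, 139949.6 and 307273 CPM in LF fat. No HF library reached the lowest LF library, and LF 3 and LF 6 were far above the other LF libraries (log2 fold change -1.37 ± 0.28 (SE), edgeR adjusted p = 0.00124). Its share of all counts was 7.82% ± 2.15 in HF fat and 16.2% ± 6.22 in LF fat. The other lower ones of the 10 were miR-26a-5p, miR-30a-5p, miR-103-3p and let-7g-5p. Also among the 10, miR-21a-5p, which rises in many inflamed and fibrotic tissues, had 42738, 56830.4 and 92435 CPM in HF fat and 46178, 48855 and 55549 CPM in LF fat. HF 3 was its highest library, the groups overlapped, and the difference did not pass the test (log2 fold change 0.34, edgeR adjusted p = 0.106). It was called higher without HF 2, without HF 5, without HF 6 and with total-count scaling.

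Of 13 tested miRNAs of leukocytes and macrophages 8 rose and none fell, where 19.6% of all tested miRNAs rose, and the median log2 fold change was 0.82 against 0.03 over all tested miRNAs. Summed over the list, which holds both arms of miR-342, the level was 4413, 6176 and 8411 CPM (lowest, median, highest) in HF fat and 2867, 3654 and 4214 CPM in LF fat, without overlap. The closest libraries were HF 6 (4413 CPM) and LF 6 (4214 CPM). They differed by more than this gap in miR-342-3p alone, so without miR-342 the sums of the groups overlap. The myeloid miRNA miR-223-3p had 468, 695 and 800.1 CPM in HF fat, against 321, 363 and 452 CPM in LF fat (log2 fold change 0.82 ± 0.13 (SE), edgeR adjusted p = 0.000312). All 6 HF libraries lay above all LF libraries. For miR-155-5p, which is made from the Mir155hg transcript and induced when macrophages and lymphocytes are activated, the levels were 201, 243 and 337 CPM in HF fat and 105, 126 and 151 CPM in LF fat, again without overlap (log2 fold change 0.94 ± 0.14 (SE), edgeR adjusted p = 0.000291). The pan-leukocyte miR-142a-3p was at 56.8, 93.8 and 138 CPM in HF fat and 38.3, 45.5 and 60.8 CPM in LF fat, and the macrophage miR-511-3p, from an intron of the mannose receptor gene Mrc1, at 15.9, 25.1 and 37.8 CPM in HF fat and 10.2, 14.4 and 19.4 CPM in LF fat. In both, the groups overlapped slightly and the difference passed the test (log2 fold changes 0.99 and 0.86, edgeR adjusted p = 0.00272 and 0.00362). The lymphocyte miRNA miR-150-5p went the other way in its median: 535, 632 and 1522 CPM in HF fat, with the highest value in HF 2, and 645, 1115 and 1326 CPM in LF fat. This difference did not pass the test (log2 fold change -0.38, edgeR adjusted p = 0.268), but did without HF 2 (log2 fold change -0.65).

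The pair miR-146a and miR-146b, which share the seed GAGAACU and dampen NF-kB signalling through Traf6 and Irak1, had 1 called member. For miR-146b-5p, in an intron of Mfsd13a at chr19:46342790-46342811, plus strand, the level was 1819.9, 2588 and 3354 CPM in HF fat, against 939, 1134 and 1432 CPM in LF fat, without overlap (log2 fold change 1.11 ± 0.23 (SE), edgeR adjusted p = 0.0012). Its seed partner miR-146a-5p, from chromosome 11, had 282, 492 and 727 CPM in HF fat and 379, 396 and 440.2 CPM in LF fat, with HF 6 below every LF library, and was not called (log2 fold change 0.30, edgeR adjusted p = 0.218), but was called higher without HF 6 and with total-count scaling. Since miR-146b-5p is the more abundant, the summed level of the seed was 2169, 3201 and 3839 CPM in HF fat and 1319, 1531 and 1838 CPM in LF fat, without overlap. Of 9 tested miRNAs that inflammatory signals are known to induce, 4 rose and 1 fell (miR-9-5p, whose call was lost without any of 7 single libraries), against 19.6% and 15.2% of all tested miRNAs, with a median of 0.45. Of the 4 that rose, miR-155-5p also stands in the leukocyte list, and miR-132-3p and miR-212-3p in the list of miR-132 and miR-212. With total-count scaling 7 of the 9 were called higher and none lower.

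The CREB-driven pair miR-132 and miR-212, from 1 transcript on chromosome 11, rose in all 4 tested arms, where 19.6% of all tested miRNAs rose. The median of the arms was 1.12. The main strand miR-132-3p had 75.1, 112 and 183 CPM in HF fat and 50.7, 55.2 and 62.1 CPM in LF fat (log2 fold change 1.15 ± 0.19 (SE), edgeR adjusted p = 0.000365). The LF libraries were tightly grouped, and every HF library lay above them. With miR-212-3p, which has the same seed AACAGUC, the summed level was 80.0, 116 and 189 CPM in HF fat and 51.9, 57.3 and 64.1 CPM in LF fat. The call of the minor strand miR-132-5p (log2 fold change 0.51, edgeR adjusted p = 0.0489) was lost without LF 1, LF 2, LF 3, LF 6, HF 3 or HF 4. For miR-34a-5p, a target of p53 that represses Sirt1, the levels were 214, 361 and 446 CPM in HF fat and 157, 177 and 195 CPM in LF fat, without overlap (log2 fold change 0.96 ± 0.16 (SE), edgeR adjusted p = 0.000386).

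High fold changes came with a wide spread inside the HF group for miR-342, miR-221 and miR-222. For miR-342-3p, in an intron of Evl at chr12:108658680-108658702, plus strand, the HF libraries 1 to 6 had 956, 519, 2055, 1119.8, 235 and 337 CPM, against 83.1, 100.4 and 115 CPM (lowest, median, highest) in LF fat (log2 fold change 3.13 ± 0.43 (SE), edgeR adjusted p = 0.000192). Its highest HF library was 8.76 times its lowest, against 1.39 times within LF, and all HF libraries were above LF. The cell-cycle regulator miR-221-3p, which represses the inhibitor p27, had 4434, 2698, 9325, 5915, 1508 and 2063 CPM in HF libraries 1 to 6, against 771, 886 and 1153 CPM in LF fat (log2 fold change 2.21 ± 0.35 (SE), edgeR adjusted p = 0.000312). Together with miR-222-3p, its neighbour on the X chromosome with the same seed GCUACAU, the level was 2311, 5463 and 14466 CPM in HF fat and 1148, 1324 and 1758 CPM in LF fat, 4.86 times higher by the means. The HF libraries stood in the same order, HF 3 above HF 4, HF 1, HF 2, HF 6 and HF 5, for miR-342-3p, miR-342-5p, miR-221-3p, miR-221-5p, miR-222-3p and miR-674-5p, as the plot of levels by library shows. The order was a different one for miR-155-5p, miR-34a-5p and miR-335-3p.

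**Figure D2:**
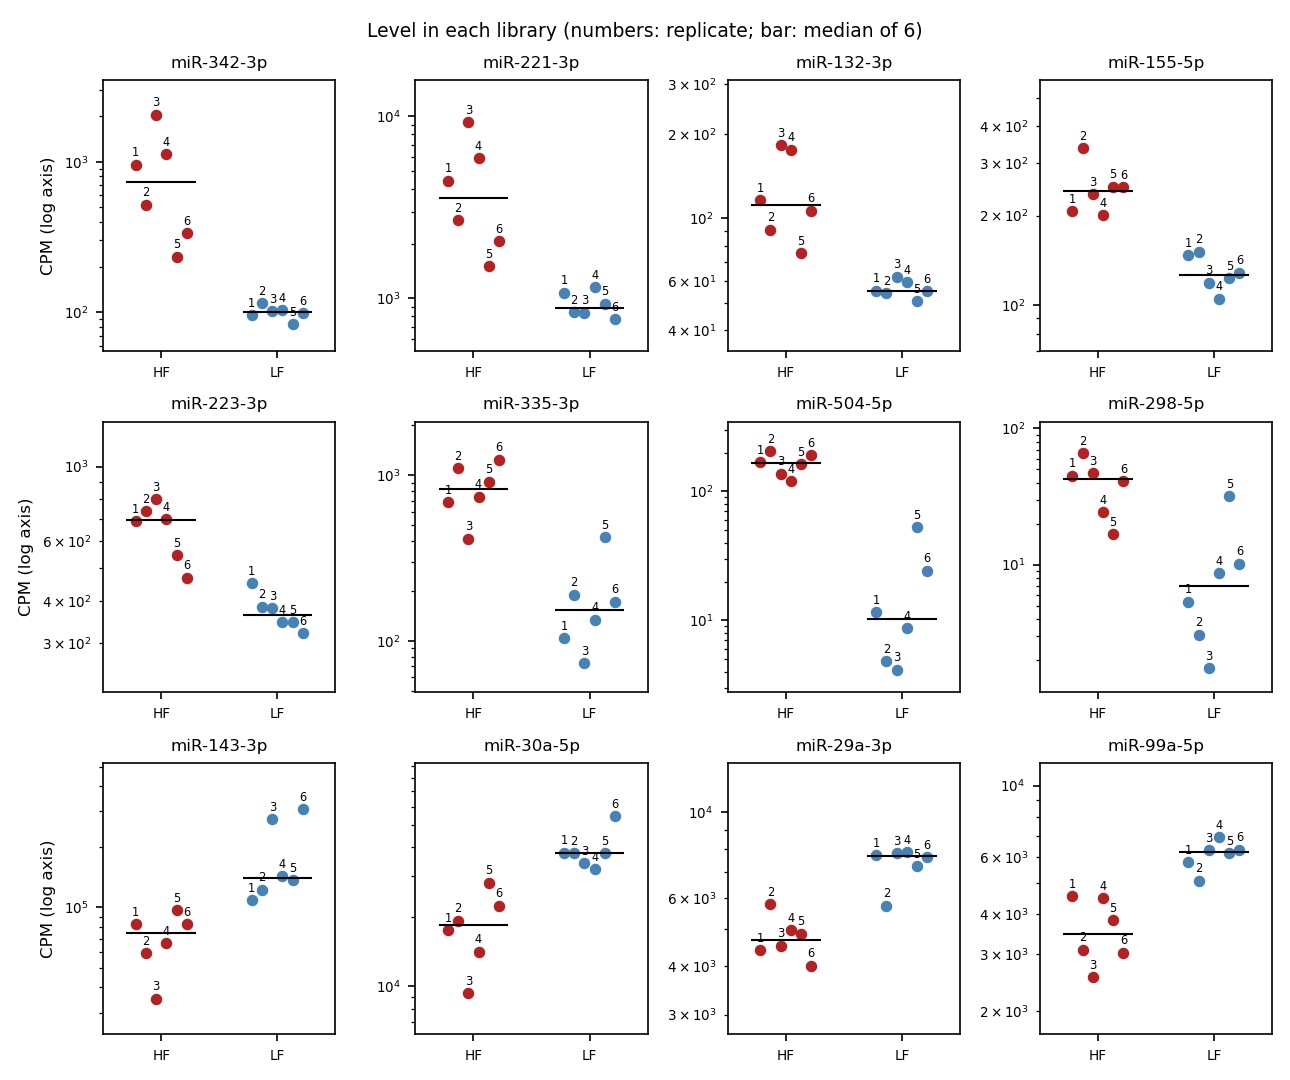
Level of 12 miRNAs in each of the 6 HF and 6 LF libraries, in CPM on a log axis, with the replicate number beside each point and a bar at the median of 6. In the top row every HF library lies above every LF library, with HF 3 highest for miR-342-3p, miR-221-3p and miR-132-3p, and in the bottom row every HF library lies below every LF library, apart from HF 2 and LF 2 of miR-29a-3p.

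HF 3 stood at the extreme of the group beyond these miRNAs: it was the highest HF library for 79 of the 112 higher miRNAs and the lowest for 52 of the 87 lower ones. HF 5 lay at the other end, as the lowest HF library for 42 of the higher and the highest for 32 of the lower miRNAs. Without HF 3, 102 miRNAs were called higher, 100 of them among the 112, and 74 lower, 69 of them among the 87. The summed level of the leukocyte list, which includes miR-342, was also highest in HF 3, and that of the smooth muscle list lowest there. The part of leukocyte content in the change of miR-342 and miR-221/222 was not tested.

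Several higher miRNAs lie in introns or imprinted loci. In the Mest intron, miR-335-3p had 686, 1099.6, 414, 743, 915 and 1241 CPM in HF libraries 1 to 6, against 73.1, 153 and 423 CPM in LF fat (log2 fold change 2.22 ± 0.38 (SE), edgeR adjusted p = 0.000434). Mest is an imprinted gene known to rise in fat tissue as fat cells enlarge, and only LF 5 reached the HF range, just above HF 3. The other arm, miR-335-5p, was more abundant, with 1005, 2148 and 2790.3 CPM in HF fat and 395, 705 and 2356 CPM in LF fat (log2 fold change 1.04, edgeR adjusted p = 0.035). That call was lost without LF 1, LF 2, LF 3, LF 4 or HF 2. In the Fgf13 intron on the X chromosome, miR-504-5p had 119.6, 166 and 205 CPM in HF fat and 4.14, 10.2 and 52.9 CPM in LF fat (log2 fold change 3.21 ± 0.60 (SE), edgeR adjusted p = 0.000598). No LF library reached the HF range, LF 5 came closest, and without LF 5 the log2 fold change was 3.97.

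At the imprinted Gnas locus on chromosome 2 lie the neighbours miR-296 and miR-298 (hairpins between 174267047 and 174267585, minus strand). All 3 of their tested arms rose, where 19.6% of all tested miRNAs rose. For miR-298-5p the levels were 16.7, 42.9 and 66.2 CPM in HF fat and 1.73, 6.996 and 32.0 CPM in LF fat (log2 fold change 1.98 ± 0.57 (SE), edgeR adjusted p = 0.0114). The arms miR-296-3p and miR-296-5p had log2 fold changes of 1.84 ± 0.46 and 1.69 ± 0.45 (edgeR adjusted p = 0.00509 and 0.00763). LF 5 was the highest LF library of each, as it was for miR-335-3p and miR-504-5p. Without LF 5 the log2 fold changes were 2.82 for miR-298-5p, 2.66 for miR-296-3p and 2.27 for miR-296-5p.

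In the Clcn5 intron cluster on the X chromosome, 5 of 9 tested arms rose and none fell, against 19.6% and 15.2% of all tested miRNAs. For miR-362-5p the levels were 77.9, 92.2 and 132 CPM in HF fat and 32.5, 45.7 and 60.1 CPM in LF fat, without overlap (log2 fold change 1.11 ± 0.17 (SE), edgeR adjusted p = 0.000291). The cluster's miR-501-3p and miR-532-5p rose too (log2 fold changes 0.98 and 0.75, edgeR adjusted p = 0.000465 and 0.000209), and miR-362-3p, the other arm of the first hairpin, was not called (log2 fold change -0.04, edgeR adjusted p = 0.871). From the Fam114a1 intron, miR-574-5p and miR-574-3p both rose (log2 fold changes 0.90 and 0.78, edgeR adjusted p = 0.000209 and 0.000547). For miR-674-5p, from chromosome 2, the levels were 118, 151 and 302 CPM in HF fat and 46.5, 63.7 and 99.0 CPM in LF fat, without overlap (log2 fold change 1.43 ± 0.22 (SE), edgeR adjusted p = 0.000312).

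The pair miR-15b and miR-16, repressors of cyclins and Bcl2, had 1 called main strand. From the Smc4 intron, miR-15b-5p had 590.3, 692 and 749 CPM in HF fat and 403, 443 and 485 CPM in LF fat, a small change with little spread and no overlap (log2 fold change 0.62 ± 0.09 (SE), edgeR adjusted p = 0.000192). The next hairpin of the same intron and a further copy on chromosome 14 give miR-16-5p, with 4162, 5115 and 6360.3 CPM in HF fat and 4636, 5093 and 7392 CPM in LF fat, which was not called (log2 fold change -0.04, edgeR adjusted p = 0.811). Over the 6 tested members with the seed AGCAGCA the summed level was 5651, 6675 and 8228 CPM in HF fat and 6106, 6469 and 9175 CPM in LF fat, with overlapping groups. Of 11 tested miRNAs of the proliferation cluster miR-17-92 and its paralogs, 2 rose and none fell, where 19.6% of all tested miRNAs rose, with a median of 0.17. These were miR-17-5p and miR-20a-5p (log2 fold changes 0.51 and 0.49, edgeR adjusted p = 0.0101 and 0.0172). Without LF 6 the call of miR-20a-5p was lost, and the list then had 1 higher and 1 lower member. No member was called with HF and LF libraries alone or with no filter on low counts, 6 were called higher with total-count scaling, and 2 higher and 2 lower with DESeq2. In the Mir17hg cluster alone, with both arms counted, 3 of 9 tested arms rose and none fell. All 9 were positive, with a median of 0.41. The arm of largest change there (log2 fold change 1.13) was called higher and is not in the list.

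In the imprinted Dlk1-Dio3 region of chromosome 12, miRNAs are transcribed from the maternal copy. Of 58 tested members 35 rose and none fell, against 19.6% and 15.2% of all tested miRNAs, 57 had a positive log2 fold change, and the median was 1.04, as the plot of lists shows. Summed over the members, the level was 2012, 2516 and 4504 CPM in HF fat, with HF 3 highest, and 1023, 1665 and 2021 CPM in LF fat, where LF 5 lay just above the 2 lowest HF libraries. Without HF 3, 28 members were called higher. In the block at 109709060 to 109743795, which holds Mirg, 22 of 39 tested arms rose and all 39 were positive, with a median of 1.03. In the block at 109571990 to 109595388, 11 of 15 rose and 14 were positive, with a median of 1.07. Among the members of smallest p, miR-409-3p had 57.6, 80.0 and 153 CPM in HF fat and 31.0, 35.9 and 48.4 CPM in LF fat (log2 fold change 1.21 ± 0.21 (SE), edgeR adjusted p = 0.000434), and miR-543-3p 35.3, 64.7 and 116 CPM in HF fat and 18.5, 28.0 and 33.9 CPM in LF fat (log2 fold change 1.37 ± 0.24 (SE), edgeR adjusted p = 0.000453). Neither overlapped between the groups. The most abundant, miR-127-3p, at 238, 333 and 581 CPM in HF fat and 119, 169 and 210.0 CPM in LF fat, did not overlap either (log2 fold change 1.07 ± 0.22 (SE), edgeR adjusted p = 0.00119).

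**Figure D3:**
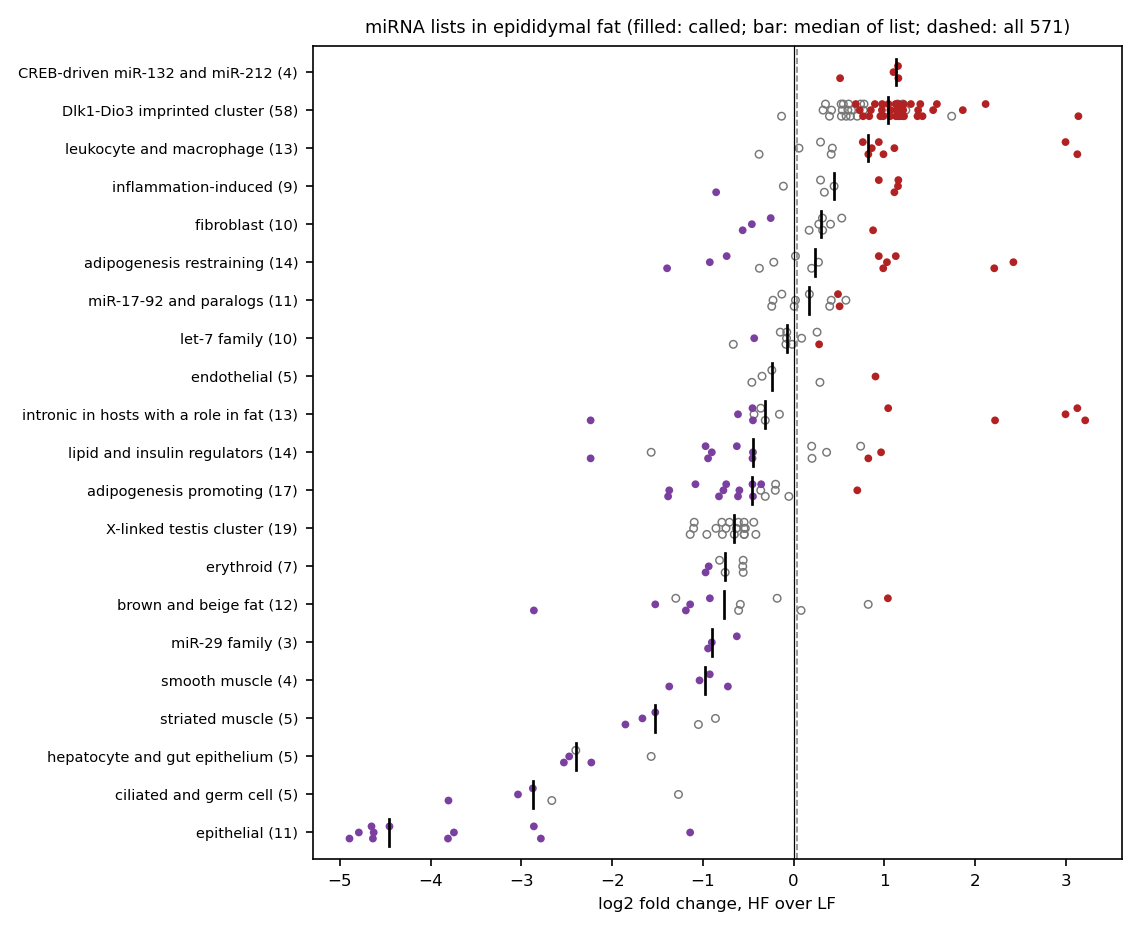
Log2 fold change, HF over LF, of each tested member of 21 lists of miRNAs (number of members in parentheses), with called members filled and others open, a bar at the median of the list and a dashed line at the median of all 571. The list of miR-132 and miR-212 (median 1.12), the Dlk1-Dio3 region (1.04) and the leukocyte list (0.82) lie at the top, and the epithelial list (-4.45) at the bottom.

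Lower in HF fat were the miRNAs of smooth muscle, all 4 of 4 tested, where 15.2% of all tested miRNAs fell. Their median log2 fold change was -0.98. Their summed level was 36462, 76387 and 99811 CPM in HF fat and 111866, 143033 and 311196 CPM in LF fat, without overlap, nearly all of it miR-143-3p. The partner miR-145a-5p, from the same transcript, had 383, 729 and 1103 CPM in HF fat and 992, 1177 and 2464 CPM in LF fat (log2 fold change -0.92 ± 0.23 (SE), edgeR adjusted p = 0.00511). Its range in HF overlapped that in LF slightly. The other strand, miR-145a-3p, was the more abundant, at 827, 1306 and 1700.1 CPM in HF fat and 1724, 2026 and 3001 CPM in LF fat, without overlap (log2 fold change -0.72 ± 0.15 (SE), edgeR adjusted p = 0.0016).

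The 17 tested miRNAs known to favour fat cell formation held 11 that fell and 1 that rose, with a median of -0.45, where 15.2% of all tested miRNAs fell and the median was 0.03. The one that rose, miR-503-5p, had 105, 110.4 and 140.4 CPM in HF fat and 57.0, 66.8 and 96.2 CPM in LF fat (log2 fold change 0.70 ± 0.13 (SE), edgeR adjusted p = 0.000596). With total-count scaling 4 were called lower and 1 higher. Their summed level was 159749.9, 239740.3 and 292694 CPM in HF fat and 350679.7, 367389.7 and 572981 CPM in LF fat, without overlap. This sum includes miR-143-3p, which is also nearly all of the smooth muscle sum. By the means, miR-143-3p gave 70506 of 239515 CPM in HF fat and 182276 of 419964 CPM in LF fat. The sum without miR-143-3p was not tested. Of the 5 tested 5p strands of the miR-30 family, which favours fat cell formation through Runx2, 3 fell and 2 were not called. The most abundant member miR-30a-5p had 9321, 18376 and 28082 CPM in HF fat, with HF 3 lowest, and 32132, 37703 and 54600.3 CPM in LF fat, with LF 6 highest (log2 fold change -1.08 ± 0.20 (SE), edgeR adjusted p = 0.000524). For miR-30c-5p the levels were 8084, 14499 and 21753 CPM in HF fat and 19818, 23667 and 31787 CPM in LF fat (log2 fold change -0.74 ± 0.20 (SE), edgeR adjusted p = 0.00768), and for miR-30e-5p, in an intron of Nfyc, 1085, 1536 and 1979 CPM in HF fat and 2115, 2658 and 3451 CPM in LF fat (log2 fold change -0.77 ± 0.14 (SE), edgeR adjusted p = 0.000529). The ranges of miR-30a-5p and miR-30e-5p did not overlap, and the call of miR-30c-5p was lost with total-count scaling (edgeR adjusted p = 0.0653). Not called were miR-30d-5p, with 13699, 16696 and 18289 CPM in HF fat and 16509.8, 18808 and 21755 CPM in LF fat (log2 fold change -0.20 ± 0.08 (SE), edgeR adjusted p = 0.063), and miR-30b-5p (log2 fold change -0.36, edgeR adjusted p = 0.0686). The test was passed by miR-30d-5p without LF 1, LF 3 or LF 6, by miR-30b-5p without LF 6 or HF 5, and by both with DESeq2, RLE factors or a filter of 10 CPM, while total-count scaling turned miR-30d-5p to 0.10. Over all 5 strands the summed level was 35694, 51199 and 69755 CPM in HF fat and 75898, 82276 and 104941 CPM in LF fat, without overlap.

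Also in that list, miR-148a-3p had 1492, 2265 and 2635 CPM in HF fat and 2756, 3188 and 3676 CPM in LF fat, without overlap (log2 fold change -0.60 ± 0.14 (SE), edgeR adjusted p = 0.00285), a call lost with total-count scaling. For miR-204-5p, which turns precursors toward the fat cell by repressing Runx2, the levels were 29.6, 53.7 and 66.9 CPM in HF fat and 67.0, 88.9 and 321 CPM in LF fat (log2 fold change -1.38 ± 0.38 (SE), edgeR adjusted p = 0.009). Without LF 4 its log2 fold change was -0.91, still called. The insulin-sensitising miR-26a-5p had 62560.5, 84685 and 92681 CPM in HF fat and 89183, 102174 and 116256 CPM in LF fat, a difference of -0.36 on the log2 scale (edgeR adjusted p = 0.0048) that was not called with total-count scaling. Of 14 tested miRNAs known to restrain fat cell formation, 6 rose (miR-221-3p, miR-222-3p and miR-155-5p among them) and 3 fell (miR-145a-5p and miR-130a-3p among them), against 19.6% and 15.2% of all tested miRNAs, with a median of 0.24. Without LF 3, 3 of the 14 were called higher and 2 lower, and with total-count scaling 8 higher and 1 lower. A filter of 10 CPM left 8 members to test, of which 3 were called higher and 3 lower. For miR-130a-3p, a repressor of Pparg, the levels were 27.7, 42.6 and 70.4 CPM in HF fat and 58.6, 73.1 and 97.4 CPM in LF fat (log2 fold change -0.74 ± 0.22, edgeR adjusted p = 0.0138), a call also lost with total-count scaling.

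The miR-29 family, a repressor of collagens and other matrix genes, fell in all 3 members, where 15.2% of all tested miRNAs fell. For miR-29a-3p the levels were 4014, 4685 and 5773 CPM in HF fat and 5728, 7677 and 7859 CPM in LF fat (log2 fold change -0.63 ± 0.09 (SE), edgeR adjusted p = 0.000291). The groups overlapped in that HF 2 lay just above LF 2, and the other 5 LF libraries were all higher. For miR-29b-3p the levels were 52.6, 77.7 and 98.9 CPM in HF fat and 121, 136 and 182 CPM in LF fat (log2 fold change -0.90 ± 0.16 (SE), edgeR adjusted p = 0.000547), and for miR-29c-3p 56.8, 72.2 and 94.9 CPM in HF fat and 92.3, 144 and 182 CPM in LF fat (log2 fold change -0.94 ± 0.16 (SE), edgeR adjusted p = 0.000434). Taken as 1 seed, AGCACCA was at 4135, 4839 and 5967 CPM in HF fat and 5941, 7968 and 8224 CPM in LF fat. These are the 3p strands, and the 4 tested 5p arms of these hairpins had log2 fold changes of -0.13 (miR-29a-5p), -0.22 (miR-29c-5p), 0.35 (miR-29b-1-5p) and 0.23 (miR-29b-2-5p), and none was called. Those arms lay between 2.92 and 55.5 CPM, and their SEs were 0.21 to 0.26, against 0.09 to 0.16 in the 3p arms.

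In the miR-10 family, which lies in the Hox clusters, miR-10b-5p (Hoxd3 intron) had 13908, 16267 and 20003 CPM in HF fat and 20251, 26418 and 27259.7 CPM in LF fat (log2 fold change -0.56 ± 0.10 (SE), edgeR adjusted p = 0.000495). For miR-10a-5p the levels were 10023, 12246 and 14147 CPM in HF fat and 14929, 16004 and 19896 CPM in LF fat (log2 fold change -0.46 ± 0.09 (SE), edgeR adjusted p = 0.000911), a call lost with total-count scaling. Neither overlapped. The related seed ACCCGUA, of the mTOR repressors miR-99 and miR-100, held 2 called members and 1 that was not called. From the chromosome 16 transcript Mir99ahg, miR-99a-5p had 2549, 3462 and 4537 CPM in HF fat and 5076, 6244 and 6915 CPM in LF fat (log2 fold change -0.77 ± 0.13 (SE), edgeR adjusted p = 0.000386). From chromosome 9, miR-100-5p had 3030.0, 3891 and 4324 CPM in HF fat and 4334, 5047 and 6710.2 CPM in LF fat (log2 fold change -0.47 ± 0.11 (SE), edgeR adjusted p = 0.00397), a call lost with total-count scaling. From chromosome 17, miR-99b-5p had 3026, 3445 and 4104 CPM in HF fat and 3025, 3433 and 4238 CPM in LF fat, nearly the same range (log2 fold change -0.01 ± 0.09, edgeR adjusted p = 0.966). For miR-101a-3p, a repressor of the histone methyltransferase Ezh2, the levels were 2269, 2855 and 3793 CPM in HF fat and 4106, 5320.2 and 5629 CPM in LF fat, without overlap (log2 fold change -0.79 ± 0.13 (SE), edgeR adjusted p = 0.000405).

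Among 14 tested regulators of lipid and insulin signalling 7 fell and 2 rose, against 15.2% and 19.6% of all tested miRNAs, with a median of -0.45. Without HF 4, 4 were called lower, without HF 5, 5 were called higher, without LF 4, 4 were called higher, and with total-count scaling 6 were called higher and 4 lower. The lower ones include the 3 miR-29 members and the pair miR-103-3p and miR-107-3p, which lie in introns of Pank genes, repress Caveolin-1 and are known to lower insulin sensitivity. For miR-103-3p the levels were 14051, 21389 and 25571 CPM in HF fat and 23331, 28797 and 33692 CPM in LF fat (log2 fold change -0.45 ± 0.14, edgeR adjusted p = 0.0172). Its groups overlapped, and the call was lost without HF 4 and with total-count scaling. For miR-107-3p the log2 fold change was -0.45 (edgeR adjusted p = 0.0444), a call lost without any of LF 1 to LF 5, HF 1, HF 3, HF 4 or HF 6. From the Srebf2 intron, the sterol regulator miR-33-5p was near the limit of counting, at 0.0797, 0.228 and 1.23 CPM in HF fat and 0.268, 1.67 and 4.10 CPM in LF fat (log2 fold change -2.24 ± 0.63 (SE), edgeR adjusted p = 0.0101). It was not called without LF 4, LF 5 and HFLF 4. For miR-378a-3p, from an intron of Ppargc1b, the levels were 1976, 2463 and 3331 CPM in HF fat and 2602, 3926 and 5864 CPM in LF fat (log2 fold change -0.61, edgeR adjusted p = 0.0127, not called with total-count scaling). The list of intronic miRNAs whose host genes act in fat held 13 tested members, with a median of -0.31. Of these, 5 rose (both arms of miR-342 and miR-335, and miR-504-5p) and 4 fell, against 19.6% and 15.2% of all tested miRNAs. Without HF 4, 2 fell, and with total-count scaling 1 fell.

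Of 12 tested regulators and markers of brown and beige fat, 5 fell and 1 rose, where 15.2% of all tested miRNAs fell and 19.6% rose, with a median of -0.76. Without LF 3, 3 fell, and without HF 2, HF 6, LF 4 or LF 5, 2 rose. The one that rose, miR-455-3p, had 128, 244 and 400.0 CPM in HF fat and 90.0, 110.2 and 179 CPM in LF fat (log2 fold change 1.04 ± 0.25 (SE), edgeR adjusted p = 0.00421). Of the 5 that fell, miR-182-5p and miR-203-3p also stand in the epithelial list and miR-133a-3p in the striated muscle list. Of 10 tested fibroblast miRNAs 3 fell and 1 rose, again beside 15.2% and 19.6%, with a median of 0.30, and with total-count scaling 1 fell and 4 rose. The lower ones include miR-10a-5p and miR-10b-5p, and the one that rose was miR-214-3p, from the Dnm3os transcript, with 266, 390.4 and 583 CPM in HF fat and 155, 199 and 347 CPM in LF fat (log2 fold change 0.88 ± 0.21 (SE), edgeR adjusted p = 0.00388). In the endothelial list 1 of 5 rose, miR-139-3p (log2 fold change 0.90 ± 0.16 (SE), edgeR adjusted p = 0.000465), near the 19.6% of all tested miRNAs, and 2 of 5 without HF 3 or with total-count scaling. The endothelial marker miR-126a-3p had 6596, 11389 and 13773 CPM in HF fat and 10085, 12944 and 21661 CPM in LF fat and was not called (log2 fold change -0.35, edgeR adjusted p = 0.119). With DESeq2 and with RLE factors miR-126a-3p and miR-126a-5p were called lower.

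The let-7 family, which holds the seed GAGGUAG and represses growth genes such as Hmga2 and Igf1r, had 1 member of 10 higher and 1 lower, with a median of -0.08, against 19.6% and 15.2% of all tested miRNAs. Without HF 1, HF 5 or LF 1, 2 were higher. The lower one, let-7g-5p, had 16285, 20498 and 23261 CPM in HF fat and 23454, 26938 and 33598 CPM in LF fat, without overlap (log2 fold change -0.43 ± 0.09 (SE), edgeR adjusted p = 0.00193), a call lost with total-count scaling. The higher one, let-7e-5p, had 4929, 5241 and 6940.3 CPM in HF fat and 3783, 4527 and 5736 CPM in LF fat, with overlap (log2 fold change 0.28, edgeR adjusted p = 0.0401, lost without LF 3 or LF 6 and with DESeq2, RLE factors and 4 further alternatives). The most abundant members, let-7f-5p, then let-7c-5p and then let-7a-5p, had log2 fold changes of -0.15, -0.09 and 0.09 (edgeR adjusted p = 0.209, 0.561 and 0.514). As a family the level was 316311, 342656 and 410015 CPM in HF fat and 314568, 351606 and 432995 CPM in LF fat, with wide overlap. The direction turns with the scaling: as a share of all counts the family took 39.03% ± 1.93 in HF fat and 33.3% ± 3.84 in LF fat, and with total-count scaling let-7f-5p, let-7c-5p, let-7b-5p, let-7i-5p and miR-98-5p had positive fold changes. That scaling called 5 of the 10 members higher and none lower.

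Both arms of a hairpin mostly moved together. Both arms were tested for 154 hairpins, both were called for 35 (25 higher and 10 lower), and no hairpin had its arms called in opposite directions. In a further 47 hairpins 1 arm was called, and in 42 of these the other arm had the same sign. Over all 154 the arms had the same sign in 118, with a Pearson r of 0.85 across hairpins, a description only, since the arms share libraries and transcripts.

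A different pattern appeared where 1 mature strand comes from 2 hairpin copies on different chromosomes, and the other strand tells the copies apart. For miR-181a, a regulator of lymphocyte signalling, and for miR-125b, a regulator of growth and differentiation, both copies of the other strand are shown, because they changed in opposite directions while the main strand did not pass the test.
miR-181a-5p: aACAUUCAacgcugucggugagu
miR-181a-1-3p: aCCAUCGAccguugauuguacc
miR-181a-2-3p: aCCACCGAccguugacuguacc
miR-125b-5p: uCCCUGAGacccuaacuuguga
miR-125b-1-3p: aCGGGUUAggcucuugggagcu
miR-125b-2-3p: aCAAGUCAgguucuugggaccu
The main strand miR-181a-5p had 3840.0, 4012 and 4649 CPM in HF fat and 3784, 4353 and 5989.9 CPM in LF fat (log2 fold change -0.13, edgeR adjusted p = 0.407). From the copy on chromosome 1 (chr1:137966508-137966529, plus strand), miR-181a-1-3p had 21.1, 28.9 and 38.1 CPM in HF fat and 16.1, 17.9 and 19.0 CPM in LF fat (log2 fold change 0.69 ± 0.15 (SE), edgeR adjusted p = 0.00147). From the copy on chromosome 2 (chr2:38852785-38852806, plus strand), miR-181a-2-3p had 11.0, 14.8 and 22.4 CPM in HF fat and 26.0, 33.1 and 41.4 CPM in LF fat (log2 fold change -1.08 ± 0.19 (SE), edgeR adjusted p = 0.000524). Neither strand overlapped between the diets. The neighbour of the chromosome 1 copy, miR-181b-1-3p, rose as well (log2 fold change 1.22 ± 0.32 (SE), edgeR adjusted p = 0.00719). That of the chromosome 2 copy, miR-181b-2-3p, was not called (log2 fold change -0.44, edgeR adjusted p = 0.545).

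The log2 ratio of the chromosome 1 copy to the chromosome 2 copy, which does not depend on the scaling, was 0.89 ± 0.51 in HF fat and -0.87 ± 0.23 in LF fat (SD, n = 6 each; 2-sided exact permutation p = 0.00216, the smallest this design can give). With neither strand overlapping between the diets, that p was fixed by the levels of the strands and is no further support. The chromosome 1 strand was the more abundant in every HF library (ratios 0.27 to 1.77) and the less abundant in every LF library (-1.12 to -0.52), a difference of 1.76. For miR-125b, the main strand miR-125b-5p had a log2 fold change of -0.11 (edgeR adjusted p = 0.355). The strand of the chromosome 9 copy, miR-125b-1-3p, had 73.0, 82.1 and 104 CPM in HF fat and 47.7, 54.5 and 65.1 CPM in LF fat (log2 fold change 0.65 ± 0.12 (SE), edgeR adjusted p = 0.000623). The strand of the chromosome 16 copy, miR-125b-2-3p, had 50.3, 82.3 and 96.9 CPM in HF fat and 96.2, 114 and 124 CPM in LF fat (log2 fold change -0.51, edgeR adjusted p = 0.0159, not called with total-count scaling or without LF 4, LF 5 and HFLF 4). This second copy lies in Mir99ahg, the transcript that also holds miR-99a, which was lower in HF fat. From the same transcript, let-7c-1-3p was not called (log2 fold change 0.13, edgeR adjusted p = 0.686). On chromosome 9, where the other copy lies, miR-100-5p was lower (log2 fold change -0.47), while miR-125b-1-3p was higher. Whether each copy follows its neighbours was not tested. The log2 ratio of the copies was 0.16 ± 0.49 in HF fat and -1.01 ± 0.17 in LF fat (SD, n = 6 each; 2-sided exact permutation p = 0.00216), with every HF library above every LF library.

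Of the 11 such pairs of copies with both distinguishing strands tested, these 2 had an adjusted exact permutation p of 0.0119 over the 11. The pairs of miR-26a (difference of the log2 ratio -1.07, adjusted exact permutation p = 0.0159) and miR-365 (-0.95, adjusted exact permutation p = 0.0357) also passed, with 1 of the 2 strands at about 1 CPM for miR-26a. The other 7 pairs had adjusted exact permutation p-values of 0.0571 to 0.942. Leaving out single libraries kept the difference at 1.58 to 1.89 for miR-181a and 0.995 to 1.27 for miR-125b. The pairs were looked for after the values of the single strands had been seen. For miR-181a and miR-125b these p-values therefore mostly restate the calls of the strands in opposite directions.

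**Figure D4:**
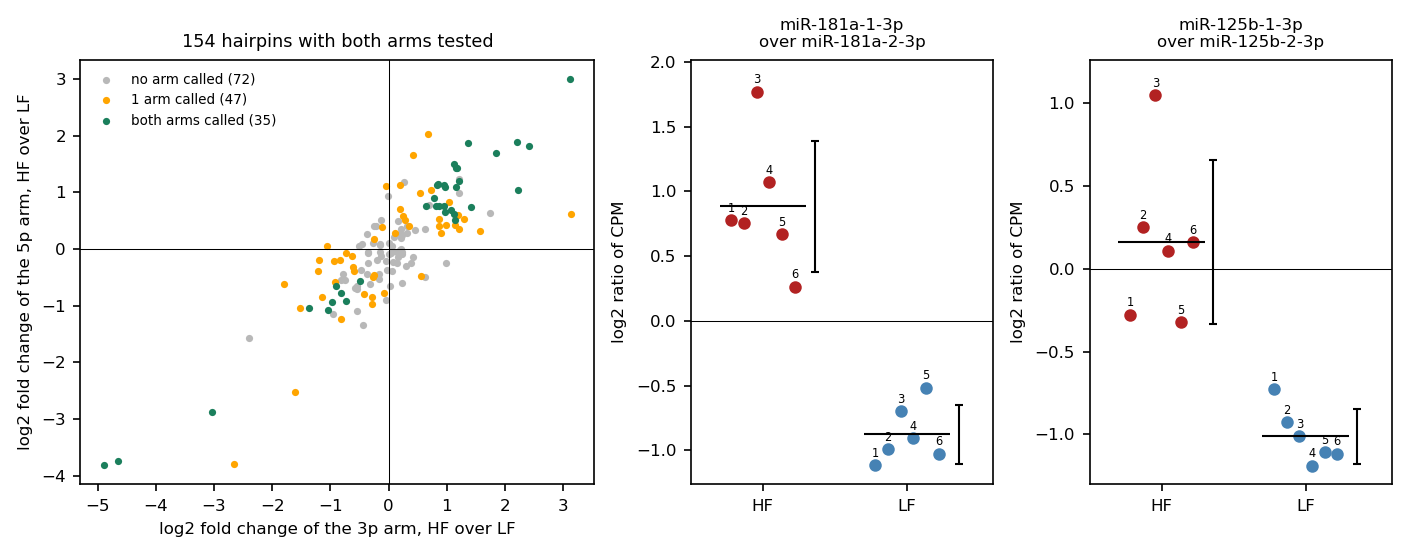
Left, log2 fold changes (HF over LF) of the 3p arm, across, and the 5p arm, up the page, for 154 hairpins, coloured by how many arms were called. Middle and right, the log2 ratio of the CPM of the strands that tell the hairpin copies of miR-181a and miR-125b apart, for each of 6 HF and 6 LF libraries with the mean as a line and the SD as a bar; the groups do not overlap in either pair.

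Markers of tissues other than fat were present in these fat pads and differed between the diets, as the plot of summed marker levels shows. All 11 tested epithelial miRNAs fell in HF fat, where 15.2% of all tested miRNAs fell, with a median log2 fold change of -4.45. Their summed level was 511, 991 and 1374 CPM in HF fat and 2291, 2841 and 12260.1 CPM in LF fat, with LF 4 highest. The groups do not overlap in this sum, but they do for all but 1 of the 11 miRNAs. By the means, miR-203-3p, whose groups overlapped, gave 810 of 948 CPM of the sum in HF fat and 1785 of 4925 CPM in LF fat. LF 4 and LF 5 stand apart in the sum as the libraries with the most miR-200b-3p, at 4398 and 2153 CPM. The other LF libraries had 57.5 to 486 CPM of it. In HF fat miR-200b-3p, which holds epithelial cells in their state by repressing Zeb1 and Zeb2, ran from 42.9 to 59.4 CPM. Without LF 4, LF 5 and HFLF 4, 8 of the 11 were called lower, with a median of -2.08. The same libraries set the lowest point in the plot of all tested miRNAs, miR-135a-5p, which had 956 CPM in LF 4 and 326 CPM in LF 5 but at most 2.41 CPM in HF fat (log2 fold change -7.41 ± 2.06 (SE), edgeR adjusted p = 0.00973). Without LF 4, LF 5 and HFLF 4 its log2 fold change was -2.28. For miR-205-5p, of basal epithelium, LF 3 held most of the level: it had 434 CPM there, and the log2 fold change was -4.45 with LF 3 and -2.28 without it.

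The miRNAs of liver, gut and kidney epithelium miR-192-5p, miR-194-5p and miR-215-5p fell too, with log2 fold changes of -2.47, -2.23 and -2.53 (edgeR adjusted p = 0.00754, 0.00332 and 0.00153). Without LF 4 the first 2 were at -1.79 and -1.60, and without LF 4, LF 5 and HFLF 4 at -0.48, no longer called, and -0.67. The hepatocyte miRNA miR-122-5p had 73.6, 309.7 and 2404 CPM in HF fat and 273, 1352 and 8092 CPM in LF fat, with HF 3 and LF 5 highest, and was not called (log2 fold change -1.57, edgeR adjusted p = 0.195). Of 5 tested miRNAs of ciliated and germ cells, 3 were called lower, where 15.2% of all tested miRNAs were. None of the 5 was called lower without LF 4, without LF 5 or without any 1 of HF 2 to HF 6. Their summed level was 26.8, 59.8 and 326 CPM in HF fat, with HF 1 highest, and 28.5, 142 and 2593 CPM in LF fat, with LF 4 highest. Of 19 tested miRNAs of the X-linked testis cluster none was called, where 34.9% of all tested miRNAs were, with a median of -0.65. Without HF 1, 6 of the 19 were called lower. That cluster's sum was 2.23, 94.5 and 1649.7 CPM in HF fat and 2.72, 315 and 1225 CPM in LF fat, so that libraries of 1 diet differed widely.

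Of 5 tested striated muscle miRNAs 3 fell in HF fat, where 15.2% of all tested miRNAs fell, with a median of -1.52. The most abundant, miR-1a-3p, had 633, 1024 and 3709.7 CPM in HF fat, with HF 5 highest, and 2777, 4781 and 9433 CPM in LF fat, with LF 3 highest (log2 fold change -1.85 ± 0.43 (SE), edgeR adjusted p = 0.00322). The call of miR-133a-3p (log2 fold change -1.52, edgeR adjusted p = 0.0188) was lost without LF 3, and that of miR-499-5p (log2 fold change -1.67, edgeR adjusted p = 0.0209) without LF 6. Of 7 tested red cell miRNAs 2 fell, both arms of miR-144, where 15.2% of all tested miRNAs fell, with a median of -0.75. Only 1 was called without LF 4, LF 6, HF 2, HF 3 or HF 4, 5 without HF 1, 6 with DESeq2, and none without LF 4, LF 5 and HFLF 4 or with total-count scaling. The red cell miRNA miR-451a had 345, 891 and 1148 CPM in HF fat and 947, 1268 and 1471 CPM in LF fat and was not called (log2 fold change -0.56, edgeR adjusted p = 0.0558), but was called lower without LF 5, without HF 6 and with DESeq2, RLE factors or a filter of 10 CPM. The part of these other tissues in the changes of fat miRNAs was not tested. As direct measurements, without LF 4, LF 5 and HFLF 4 the log2 fold change was -1.53 for miR-143-3p, -1.15 for miR-30a-5p, -0.59 for miR-29a-3p and 3.09 for miR-342-3p, each still called.

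**Figure D5:**
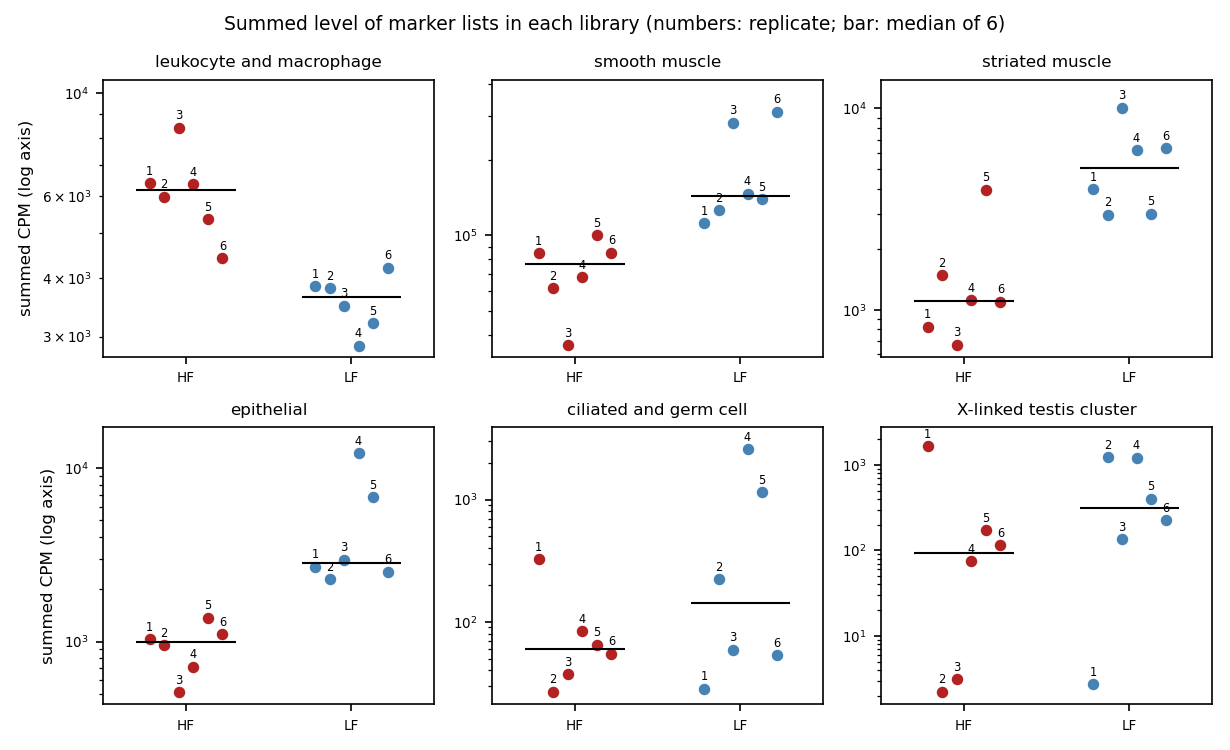
Summed level of 6 lists of marker miRNAs in each of the 6 HF and 6 LF libraries, in CPM on log axes, with the replicate number beside each point and a bar at the median of 6. The leukocyte sum, which includes miR-342, is higher and the smooth muscle and epithelial sums are lower in every HF library than in any LF library, while the striated muscle, ciliated and germ cell and X-linked testis sums overlap.

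The change in eWAT was set against the change in liver under the same diets, in a single edgeR fit with a term for the difference of the diet effect between the tissues. Of 595 miRNAs tested, the change differed for 159, more positive in fat for 70 and more negative for 89 (26.7%, 11.8% and 15.0%). Fat and liver libraries of a diet carry the same numbers in the labels, and with these numbers as a replicate block 103 differed, 102 of them among the 159: 49 more positive and 54 more negative. Of the 199 miRNAs called in fat, 109 differed from liver, 108 of them with the sign of the change in fat, and 50 called differences were of miRNAs not called in fat. The change in fat, from the same libraries, is part of this difference. That overlap and the shared sign are therefore partly built in. The positive difference of smallest p was that of miR-342-3p, at 2.93 on the log2 scale. On the scale of both tissues together it had 533 ± 392 CPM in HF fat and 64.8 ± 8.51 CPM in LF fat, and 104 ± 16.4 CPM in HF liver and 96.0 ± 19.3 CPM in LF liver (SD, n = 6 each). For miR-221-3p the difference was 2.16 and for miR-362-5p 1.06, with liver means of 1159 and 63.8 CPM in HF and 1175 and 64.6 CPM in LF. For let-7e-5p the difference was 1.11, with 3463 ± 535 CPM in HF fat and 2949 ± 355 CPM in LF fat. In liver let-7e-5p had 1228 ± 166 CPM in HF and 2258 ± 409 CPM in LF. The negative differences of smallest p were those of miR-29c-3p (-1.15), miR-101a-3p (-0.99), miR-99a-5p (-0.92) and miR-107-3p (-1.10). For miR-107-3p, HF fat had 133 ± 36.7 CPM and LF fat 189 ± 37.6 CPM, whereas HF liver had 735 ± 112 CPM and LF liver 487 ± 42.4 CPM. For miR-29c-3p, liver had 299 ± 68.6 CPM in HF and 269 ± 33.3 CPM in LF. The edgeR adjusted p of these 8 differences ran from 5.85e-05 for miR-342-3p to 0.000674 for miR-107-3p.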

How the data were processed

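The deposited eWAT table holds raw counts per mature miRNA made by the authors; the library kit was NEXTFLEX Small RNA-seq v3, per the labels' protocols. The submitters' processing notes name cutadapt, Bowtie and GRCm38.p6, with no version. Which miRNA set and counter were used is not given in the sources used here. Strands shared by several hairpins cannot be assigned to a copy. Columns coded C, H and R were read as LF, HF and HFLF, which the sources do not define. Across the tables, 54 columns of values were not used (18 repeated liver columns and 36 sperm columns). The members, lists and the naming rule were chosen with earlier results of these data known.

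Counts were fitted with edgeR 4.0.16 in R 4.3.3: filterByExpr by diet, TMM scaling, quasi-likelihood test, all 18 eWAT libraries with diet as the term. A call is a 2-sided Benjamini-Hochberg adjusted p below 0.05 over 571 miRNAs; log2 CPM used a prior count of 2, and SE is that of the log2 fold change. The difference from liver was the interaction of tissue and diet in 36 libraries; the labels give both tissues the same numbers within a diet (HF1 and so on), without saying that the animals are the same. Named are the 12 higher and 12 lower called miRNAs of smallest p with at least 10 CPM, the 10 most abundant, all let-7 members, the 3 members of smallest p in each list, their other arms and, for the difference from liver, 4 each way. The following were named after their values were seen: miR-504-5p, miR-296-3p, miR-296-5p, miR-298-5p, miR-200b-3p, miR-200c-3p, miR-205-5p, miR-122-5p, miR-30b-5p, miR-30c-5p, miR-30d-5p, miR-127-3p, miR-501-3p, miR-99b-5p, miR-100-5p, miR-16-5p, miR-146a-5p, miR-142a-3p, miR-150-5p, miR-511-3p, miR-378a-3p, miR-107-3p, miR-9-5p, miR-135a-5p, miR-29b-1-5p, miR-29b-2-5p, miR-130a-3p, miR-204-5p, miR-33-5p, miR-148a-3p and all strands of the paired hairpin copies but miR-181a-2-3p and miR-125b-5p. Hosts and clusters (hairpins within 10 kb) come from GENCODE M21. Ratios of hairpin copies were tested by exact permutation in Python 3.11.15 (scipy 1.17.1). DESeq2 1.42.0, other scalings and filters, a fit of HF and LF alone, the replicate number as a block and leaving out libraries were alternatives. Scripts were tested on simulated data. A level of 3 counts is 0.239 to 0.361 CPM in HF and 0.259 to 0.402 CPM in LF libraries, and covers counting error only.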

Additional observations from a re-analysis of the deposited data

Results flagged for a closer look

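Of 296 groups of 6 libraries checked (HF and LF for each named miRNA), 12 held 1 library that stood apart, where chance gives about 1 in 20. The number of flags is not above that share. The measure is the gap of that library to the next one divided by the whole range, on the log2 scale. HF 1 was the highest HF library for miR-465a-5p (0.772; 14.2 CPM, the others 0 to 0.338), miR-878-3p (0.631), miR-34b-3p (0.763; 79.8 CPM, the others 10.4 to 17.0) and miR-200c-3p (0.717; 46.5 CPM, the others 8.80 to 14.1). These are miRNAs of testis, ciliated cells and epithelium. LF 6 was the highest LF library for miR-30a-5p (0.688), miR-126a-3p (0.642) and miR-16-5p (0.721), and the lowest for miR-125b-5p (0.646). LF 2 was the lowest LF library for miR-29a-3p (0.745; 5728 CPM, the others 7249 to 7859) and miR-181b-1-3p (0.647). LF 3 was the highest for miR-143-5p (0.726), and LF 5 for miR-296-3p (0.686; 12.7 CPM, the others 1.55 to 3.08).

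The change differed between fat and liver for 159 miRNAs by the interaction test in edgeR. The named ones are miR-342-3p (2.93, change in fat minus change in liver on the log2 scale), miR-221-3p (2.16), let-7e-5p (1.11), miR-362-5p (1.06), miR-99a-5p (-0.92), miR-101a-3p (-0.99), miR-107-3p (-1.10) and miR-29c-3p (-1.15). Each kept its call and sign under all 30 alternatives of that fit.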

How the results depend on the processing

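Over single libraries left out in turn, 94 to 124 miRNAs were called higher and 70 to 93 lower, against 112 and 87. Total-count scaling gave 205 higher, which include all 112, and 53 lower, all among the 87. DESeq2 gave 108 and 120, RLE factors 100 and 111, no filter on low counts 95 and 80, and HF and LF libraries alone 97 and 65. The replicate numbers do not pair HF with LF libraries (correlations of deviations -0.776 to 0.121), and with the replicate block 106 were called higher and 65 lower, and 7 of the 11 epithelial miRNAs were lower. For the difference from liver the replicate block gave 103 in all and 54 more negative; without a filter on low counts 59 were more negative. Of 97 called miRNAs that are named, 66 kept their call under each of the 18 to 20 alternatives in which they were tested, and 2 changed sign: without LF 4, LF 5 and HFLF 4, miR-34b-5p was at 0.31 and miR-34c-5p at 0.14. Uncalled miRNAs near 0 changed sign with total counts: let-7f-5p (0.16), let-7c-5p (0.21), let-7b-5p (0.22), let-7i-5p (0.29), miR-98-5p (0.23), miR-125b-5p (0.18), miR-365-3p (0.11), miR-99b-5p (0.28), miR-16-5p (0.27), miR-181a-5p (0.19), miR-29a-5p (0.14), miR-29c-5p (0.056) and miR-30d-5p (0.10). With DESeq2 and RLE factors let-7a-5p was at -0.0076. Without LF 4, LF 5 and HFLF 4, miR-99b-5p was at 0.085, miR-29a-5p at 0.082 and miR-362-3p at 0.071. Leaving out single libraries moved let-7i-5p between -0.073 and 0.088, miR-98-5p between -0.14 and 0.0053, miR-99b-5p between -0.058 and 0.076, miR-16-5p between -0.11 and 0.045, miR-29a-5p between -0.29 and 0.029, and miR-362-3p between -0.12 and 0.069. The cause of these shifts was not tested. Depth limits the precision of miRNAs of a few CPM.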
